A study of Mus musculus with 7 samples.

Results

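The 10 genes described here encode the contractile apparatus that smooth muscle shares with myoepithelial cells, the basal cells of the mammary gland that squeeze milk out of the alveoli. They are Acta2, Actg2, Myh11, Cnn1, Mylk, Tagln, Myl9, Oxtr, Lmod1 and Des, picked by symbol, and all 10 were found among the 38579 gene entries of an FPKM table (fragments per kilobase of transcript, scaled to library size). The table holds 7 RNA-seq libraries of cells sorted by flow cytometry from mammary rudiments of CD1 mouse embryos at E17.5, late in gestation. The question asked of them is whether these transcripts lay in the epithelium or in the stroma at this stage.

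The first sort (Sox10 sort) gave 2 libraries of fetal mammary stem cells (fMaSC) positive for the Sox10-Venus reporter and for EpCAM, an epithelial surface protein, and 1 library of EpCAM-negative stroma, whose title adds Sox10-negative and lineage-negative. The second (CD24 sort) gave 2 libraries of lineage-negative fMaSC positive for CD24 and CD49f and 2 libraries of lineage-negative, CD24low stroma. All cells were primary, none was cultured or treated according to the labels, and the sex and the number of embryos per library are not given in the sources used here. The labels call the libraries biological replicates without saying whether they came from separate litters, so p-values measure the spread between these libraries. A fraction named fMaSC is a gate that holds stem cells among other cells.

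In smooth muscle, a rise in calcium switches on myosin light chain kinase (Mylk), which phosphorylates the regulatory light chain (Myl9) of smooth muscle myosin (heavy chain Myh11), and the myosin then pulls on filaments of smooth muscle actin (Acta2 and Actg2). Calponin (Cnn1) and transgelin (Tagln) bind those filaments, leiomodin (Lmod1) nucleates them, and desmin (Des) forms the intermediate filaments of muscle cells. In the lactating gland the hormone oxytocin triggers this machinery through its receptor Oxtr on myoepithelial cells. Many of these genes carry CArG boxes, short elements bound by serum response factor (SRF) and its partner myocardin.

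Acta2 and Myl9, the members with the highest levels, are those of 7 members with a promoter window at hand whose windows hold such an element, and their windows are shown for that reason. They run from 250 bases before to 50 bases after the RefSeq start in GRCm38.p6, 5′ to 3′ on the gene's strand, at chr19:34255324-34255623 on the minus strand for Acta2 and chr2:156775214-156775513 on the plus strand for Myl9. Capitals mark a CArG box, or a CArG-like box in which 1 of the 6 middle bases is G or C.
Acta2: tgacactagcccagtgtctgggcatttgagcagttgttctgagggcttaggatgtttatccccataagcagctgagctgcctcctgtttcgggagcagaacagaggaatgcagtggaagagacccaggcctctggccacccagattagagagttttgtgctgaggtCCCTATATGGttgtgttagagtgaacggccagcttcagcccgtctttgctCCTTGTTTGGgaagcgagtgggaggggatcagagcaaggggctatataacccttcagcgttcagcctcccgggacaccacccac
Myl9: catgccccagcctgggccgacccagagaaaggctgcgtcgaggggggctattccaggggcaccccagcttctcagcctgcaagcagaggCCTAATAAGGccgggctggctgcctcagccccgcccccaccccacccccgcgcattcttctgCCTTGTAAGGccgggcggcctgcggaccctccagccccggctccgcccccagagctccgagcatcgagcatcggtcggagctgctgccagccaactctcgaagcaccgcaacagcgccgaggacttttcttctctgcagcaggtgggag
The Acta2 window holds the CArG-like boxes CCCTATATGG and CCTTGTTTGG, which begin 84 and 34 bases before the start. The Myl9 window holds the CArG box CCTAATAAGG, 161 bases before the start, and the CArG-like box CCTTGTAAGG, 99 bases before it. Both motifs read the same class of sequence on either strand, and the search covered both. Among 32851 mouse promoter windows of the same 300 bases, 1.63% held a CArG box and 8.50% a CArG-like box. Windows were at hand for 7 of the 10 members, and those of Cnn1, Mylk, Oxtr, Lmod1 and Des held no match within these bases. The Mylk window, at chr16:34784700-34784999, lies inside the gene span given below, so it does not describe the 5′ end of that span. For Acta2 the 5′ end of the span given below, at 34255590, lies upstream of the RefSeq start and of both boxes. The distances given thus hold for the RefSeq start alone. Windows for Actg2, Myh11 and Tagln were not used here.

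The 2 smooth muscle actins are near copies, so the last 90 coding bases of each show what keeps their reads apart, with capitals at the bases that differ.
Acta2: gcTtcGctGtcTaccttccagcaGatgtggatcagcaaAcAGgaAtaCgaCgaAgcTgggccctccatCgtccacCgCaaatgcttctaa
Actg2: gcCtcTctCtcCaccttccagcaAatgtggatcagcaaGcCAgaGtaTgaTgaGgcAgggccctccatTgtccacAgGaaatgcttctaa
Over these bases 16 differ. Over 1131 aligned coding bases Acta2 and Actg2 differ at 176, which leaves 84.4% identity, and the longest identical run is 29 bases. With reads of 100 bases, 100% of the 100-base windows along each member's transcript occurred in no annotated transcript of another gene, so exact 100-base matches did not blur the members with their paralogs.

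The labels were set beside marker genes, whose lists were chosen with earlier results of these data known, so the check is not independent. Basal epithelial markers (11 genes, among them Krt5, Krt14 and the transcription factor gene Trp63) summed to 173 to 392 FPKM in the 4 fMaSC libraries, against 5.96 to 6.82 FPKM in the 3 stromal libraries. Fibroblast and matrix markers (10 genes, led by Col3a1 and Col1a1) summed to 60.5 and 99.0 FPKM in Sox10+EpCAM+ fMaSC, against 7858 FPKM in EpCAM-negative stroma. They summed to 2757 and 4212 FPKM in CD24+CD49f+ fMaSC, against 9203 and 9100.0 FPKM in CD24low stroma, so the CD24+CD49f+ libraries held stromal matrix transcripts at a level far above the Sox10+EpCAM+ libraries. Haemoglobin and other erythroid transcripts (6 genes) summed to 6870 FPKM in CD24+CD49f+ replicate 1 and to 85.3 to 731 FPKM in the other 6 libraries. Library depth, estimated from the spacing of low FPKM values, was about 25.2 to 38.0 M fragments, and 12790 to 13639 genes reached 1 FPKM.

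Across the 4 sort groups the 10 genes fell into 3 patterns. Myh11, Mylk and Des were lower in fMaSC than in stroma, and Oxtr was higher in fMaSC. Acta2, Actg2, Tagln, Cnn1, Myl9 and Lmod1 were detected on both sides without a difference that passed the test on FPKM as deposited. The test was limma on log2(FPKM + 1), two-sided, with Benjamini-Hochberg adjustment over 14418 genes that reached 1 FPKM in at least 2 libraries, and a gene was called at an adjusted p under 0.05. All 10 members passed that filter on low values. Oxtr passed it through the Sox10+EpCAM+ fMaSC libraries alone, where it is highest, so its entry into the test already rested on its high group. Myh11 and Cnn1 reached 1 FPKM in all 3 stromal libraries but, among fMaSC, in CD24+CD49f+ replicate 1 alone. Both thus entered through stroma, which for Myh11 is the high group. Lmod1 reached 1 FPKM in stroma in CD24low replicate 1 alone, so it entered through fMaSC. In the comparison averaged over both sorts, 3 members were called lower and 1 higher in fMaSC, against 15.3% lower and 18.4% higher among all genes tested. FPKM summed over all genes to 738869 and 607325 in Sox10+EpCAM+ fMaSC, against 378952 in EpCAM-negative stroma, and calls changed with the scaling. When scaled to TPM, Acta2, Cnn1, Tagln and Myl9 were also called lower over both sorts (limma adjusted p = 0.0380, 0.0261, 0.00510 and 0.0108). There 13.3% of all genes were called lower.

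**Figure D1:**
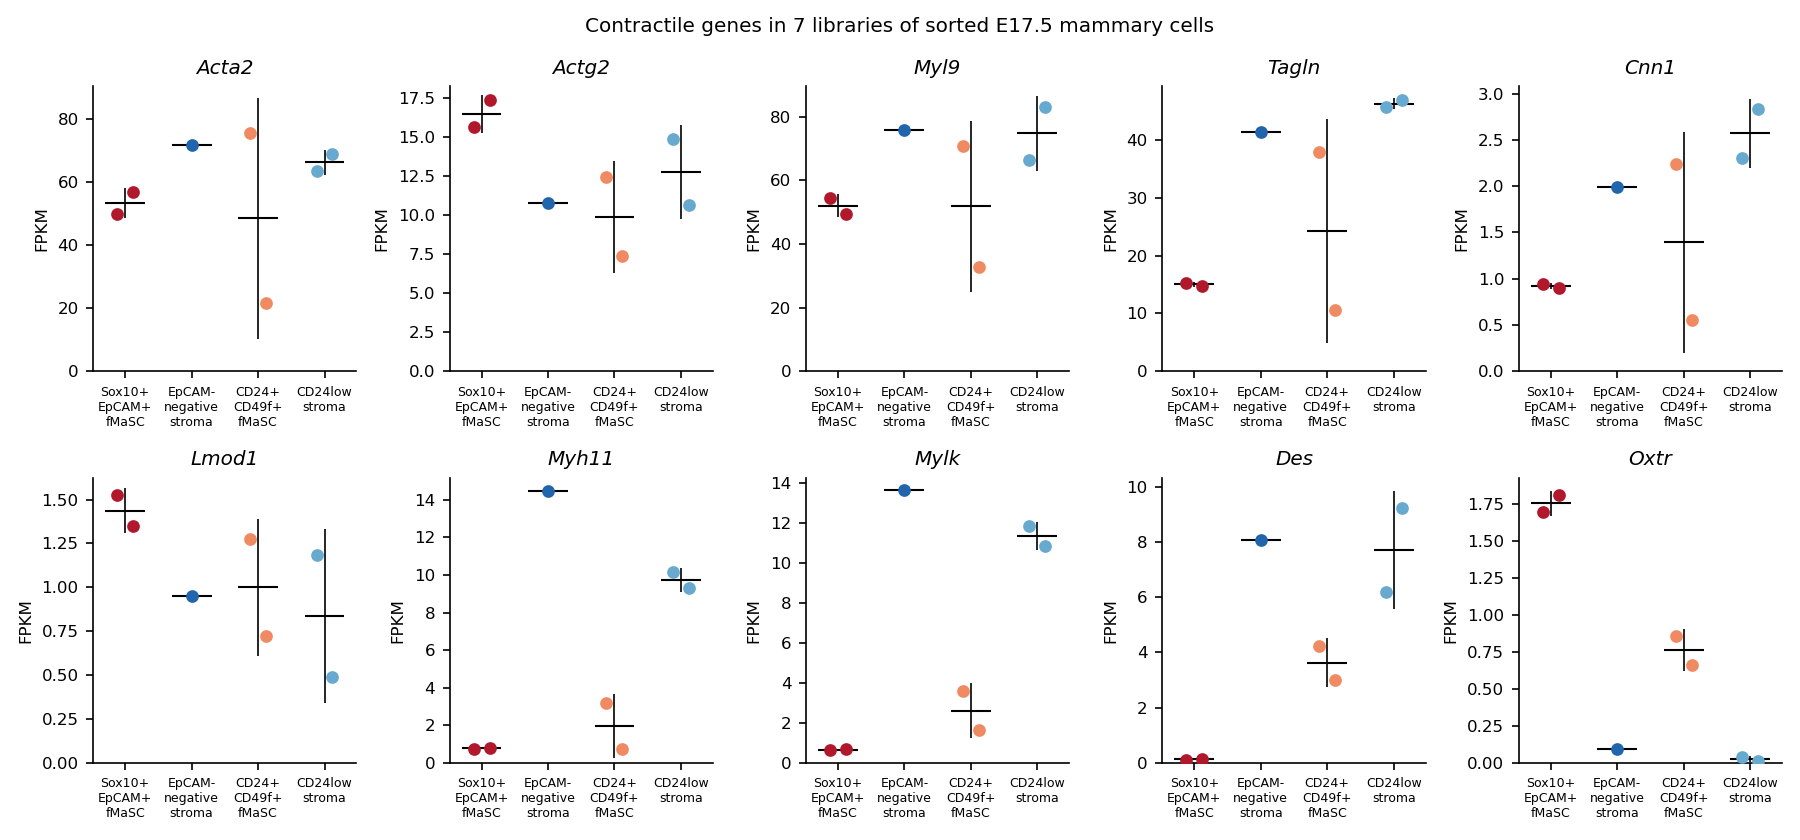
FPKM of the 10 contractile genes (y axis, linear, from 0, own scale per gene) in the 4 sort groups (x axis). Points are libraries, the horizontal line is the group mean and the vertical line is ± 1 SD (n = 2), absent for the 1 EpCAM-negative library. Myh11, Mylk and Des sit low in fMaSC and high in stroma, Oxtr the other way, and the CD24+CD49f+ points of Acta2, Tagln and Cnn1 lie far apart.

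Myh11, the heavy chain that marks differentiated smooth muscle (chr16:14194535-14291372, minus strand, GRCm38), was low in fMaSC and several-fold higher in stroma. It measured 0.723 and 0.792 FPKM in Sox10+EpCAM+ fMaSC, against 14.5 FPKM in EpCAM-negative stroma. It measured 3.16 and 0.748 FPKM in CD24+CD49f+ fMaSC, against 10.2 and 9.30 FPKM in CD24low stroma. All 4 fMaSC libraries lay below all 3 stromal libraries. On the log2(FPKM + 1) scale, which understates changes of low genes, the difference was −3.14 (SE 0.479, limma adjusted p = 0.00571) in the Sox10 sort and −1.99 (SE 0.391, limma adjusted p = 0.0284) in the CD24 sort. The CD24-sort call was lost in 6 of 16 alternatives: without either CD24low replicate (limma adjusted p = 0.147 and 0.145), without either Sox10+EpCAM+ replicate (0.0721 and 0.0668), with no filter on low values (0.116) and with the CD24-sort libraries alone (0.0636), while the call over both sorts held in all 14 alternatives. In bulk libraries fewer cells that carry a transcript and less transcript per cell cannot be told apart, which holds for every member.

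Mylk, the kinase that starts contraction (chr16:34745210-35002420, plus strand), followed the same order. Its levels were 0.634 and 0.683 FPKM in Sox10+EpCAM+ fMaSC, against 13.6 FPKM in EpCAM-negative stroma, and 3.59 and 1.64 FPKM in CD24+CD49f+ fMaSC, against 11.8 and 10.9 FPKM in CD24low stroma. The groups did not overlap in either sort. The difference in log2(FPKM + 1) was −3.14 (SE 0.338, limma adjusted p = 0.00173) in the Sox10 sort and −1.83 (SE 0.276, limma adjusted p = 0.0120) in the CD24 sort. Without either CD24low replicate the CD24-sort call was lost (limma adjusted p = 0.0841 and 0.0852), as it was with no filter on low values (0.0629), and over both sorts it held in all 14 alternatives.

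Des, an intermediate filament protein of muscle and also of pericytes (chr1:75360329-75368579, plus strand), was nearly absent from Sox10+EpCAM+ fMaSC. There it measured 0.0975 and 0.149 FPKM, against 8.06 FPKM in EpCAM-negative stroma, a difference of −3.01 in log2(FPKM + 1) (SE 0.289, limma adjusted p = 0.00120). In CD24+CD49f+ fMaSC it measured 4.25 and 3.01 FPKM, against 6.20 and 9.23 FPKM in CD24low stroma. These libraries did not overlap either, but the difference of −0.90 (SE 0.236) missed the threshold (limma adjusted p = 0.0661), which it passed under median-ratio scaling (0.0493). Relative to the CD24+CD49f+ fraction, Des was lower in the Sox10+EpCAM+ fraction by a log2 difference of −2.03 (SE 0.236, limma adjusted p = 0.00592). Without either Sox10+EpCAM+ replicate that call was lost (limma adjusted p = 0.0672 and 0.0523). The matrix markers given above moved with it: they too were far lower in Sox10+EpCAM+ than in CD24+CD49f+ fMaSC. In that comparison 10 of 10 were called lower, beside 8.04% of all genes, and their part in the result was not tested.

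Oxtr, the oxytocin receptor (chr6:112473683-112489943, minus strand), was the member that was called higher in epithelium. It measured 1.70 and 1.82 FPKM in Sox10+EpCAM+ fMaSC, against 0.0896 FPKM in EpCAM-negative stroma. In CD24+CD49f+ fMaSC it measured 0.862 and 0.663 FPKM, against 0.0376 and 0.00908 FPKM in CD24low stroma. At the estimated depths and an assumed fragment length of 200 bases, these levels stand for about 231 and 271 fragments in the Sox10+EpCAM+ libraries and 148 and 85.1 in the CD24+CD49f+ libraries, against about 11.4 in EpCAM-negative and 5.17 and 1.03 in CD24low stroma. Every fMaSC library thus lay above every stromal library, and the stromal values rest on few fragments. The difference in log2(FPKM + 1) was 1.34 (SE 0.180, limma adjusted p = 0.00363) in the Sox10 sort and 0.78 (SE 0.147, limma adjusted p = 0.0244) in the CD24 sort. The CD24-sort call was lost without CD24+CD49f+ replicate 1 (limma adjusted p = 0.0524), without either CD24low replicate (0.112 and 0.137) and when scaled to TPM (0.0777). Among the genes tested its level stood at the 20.1st and 20.8th percentile in Sox10+EpCAM+ fMaSC. In CD24+CD49f+ fMaSC it stood at the 4.45th and 3.44th percentile, and in stroma at or below the 1.96th. Between the fMaSC fractions it was higher in Sox10+EpCAM+ cells by 0.65 (SE 0.147, limma adjusted p = 0.0466), a call that was lost without CD24+CD49f+ replicate 2 (limma adjusted p = 0.107), without either CD24low replicate (0.0935 and 0.0916), with a pseudocount of 0.1 (0.161), when scaled to TPM (0.463) and with no variance trend (0.0614), 6 of the 12 alternatives that tested it.

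Acta2, smooth muscle alpha-actin and the standard histological marker of myoepithelium (chr19:34241090-34255590, minus strand), was abundant on both sides. It measured 50.03 and 56.89 FPKM in Sox10+EpCAM+ fMaSC, against 71.8 FPKM in EpCAM-negative stroma, and 75.6 and 21.5 FPKM in CD24+CD49f+ fMaSC, against 63.6 and 69.1 FPKM in CD24low stroma. The highest and the lowest of the 7 values both came from CD24+CD49f+ fMaSC, so the groups of that sort overlap, while in the Sox10 sort both fMaSC values lay below the 1 stromal value. The difference in log2(FPKM + 1) was −0.42 (95% CI −2.04 to 1.20) in the Sox10 sort and −0.70 (95% CI −2.02 to 0.63) in the CD24 sort, with limma adjusted p = 0.660 and 0.487. The intervals reach about 4-fold on the lower side and less far on the higher side, so no equality is shown. Over both sorts the difference was −0.56 (limma adjusted p = 0.338). Acta2 was called lower there when scaled to TPM (−1.12, limma adjusted p = 0.0380). Acta2 ranked at or above the 79.7th percentile of tested genes in all 7 libraries.

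Myl9, the regulatory light chain of smooth muscle myosin (chr2:156775420-156781658, plus strand), ran at similar levels. It had 54.6 and 49.6 FPKM in Sox10+EpCAM+ fMaSC, against 75.9 FPKM in EpCAM-negative stroma, and 70.9 and 32.8 FPKM in CD24+CD49f+ fMaSC, against 66.5 and 83.1 FPKM in CD24low stroma. The CD24-sort groups overlapped. Differences of −0.54 (95% CI −1.65 to 0.58) and −0.61 (95% CI −1.52 to 0.30) in log2(FPKM + 1) for the Sox10 and CD24 sorts did not pass (limma adjusted p = 0.409 and 0.377). Over both sorts the difference was −0.57 (limma adjusted p = 0.176). Myl9 was called lower there when scaled to TPM (−1.13, limma adjusted p = 0.0108) and under quantile scaling (−0.90, limma adjusted p = 0.0294).

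Tagln, also called SM22, an actin-binding protein of early smooth muscle (chr9:45929619-45936058, minus strand), was below stroma in every fMaSC library. Its levels were 15.3 and 14.8 FPKM in Sox10+EpCAM+ fMaSC, against 41.5 FPKM in EpCAM-negative stroma, and 38.0 and 10.5 FPKM in CD24+CD49f+ fMaSC, against 45.7 and 47.0 FPKM in CD24low stroma. CD24+CD49f+ replicate 1 came close to the stromal values and replicate 2 was the lowest of all 7. The mean difference over both sorts was −1.28 in log2(FPKM + 1) (95% CI −2.31 to −0.26), with limma adjusted p = 0.0605, just short of a call. It was called in 5 of 14 alternative settings, among them the fits without CD24+CD49f+ replicate 1 (−1.72) and without replicate 2 (−0.84).

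Cnn1, the smooth muscle calponin (chr9:22099216-22109630, plus strand), was a low transcript throughout. It measured 0.941 and 0.902 FPKM in Sox10+EpCAM+ fMaSC, against 1.99 FPKM in EpCAM-negative stroma, and 2.24 and 0.552 FPKM in CD24+CD49f+ fMaSC, against 2.31 and 2.84 FPKM in CD24low stroma. Within each sort the fMaSC libraries lay below their stroma, narrowly for CD24+CD49f+ replicate 1. The difference over both sorts was −0.65 in log2(FPKM + 1) (95% CI −1.32 to 0.01, limma adjusted p = 0.111). Cnn1 was called lower there when scaled to TPM (−1.26, limma adjusted p = 0.0261).

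Actg2, the enteric smooth muscle gamma-actin (chr6:83512905-83536265, minus strand), did not follow the stromal members. It measured 15.6 and 17.4 FPKM in Sox10+EpCAM+ fMaSC, against 10.8 FPKM in EpCAM-negative stroma, and 12.4 and 7.36 FPKM in CD24+CD49f+ fMaSC, against 14.9 and 10.6 FPKM in CD24low stroma. Its 2 highest values were those of Sox10+EpCAM+ fMaSC, while the groups of the CD24 sort overlapped. Over both sorts the difference was 0.11 in log2(FPKM + 1) (95% CI −0.44 to 0.65, limma adjusted p = 0.733), and its sign changed in 5 of 14 alternatives.

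Lmod1, the leiomodin of smooth muscle (chr1:135324807-135368065, plus strand), was low and similarly placed. It measured 1.53 and 1.35 FPKM in Sox10+EpCAM+ fMaSC, against 0.948 FPKM in EpCAM-negative stroma, and 1.28 and 0.725 FPKM in CD24+CD49f+ fMaSC, against 1.19 and 0.486 FPKM in CD24low stroma. The Sox10+EpCAM+ values were again the highest of the 7. The difference over both sorts was 0.23 (95% CI −0.24 to 0.70, limma adjusted p = 0.381), with a change of sign in 1 of 13 alternatives.

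**Figure D2:**
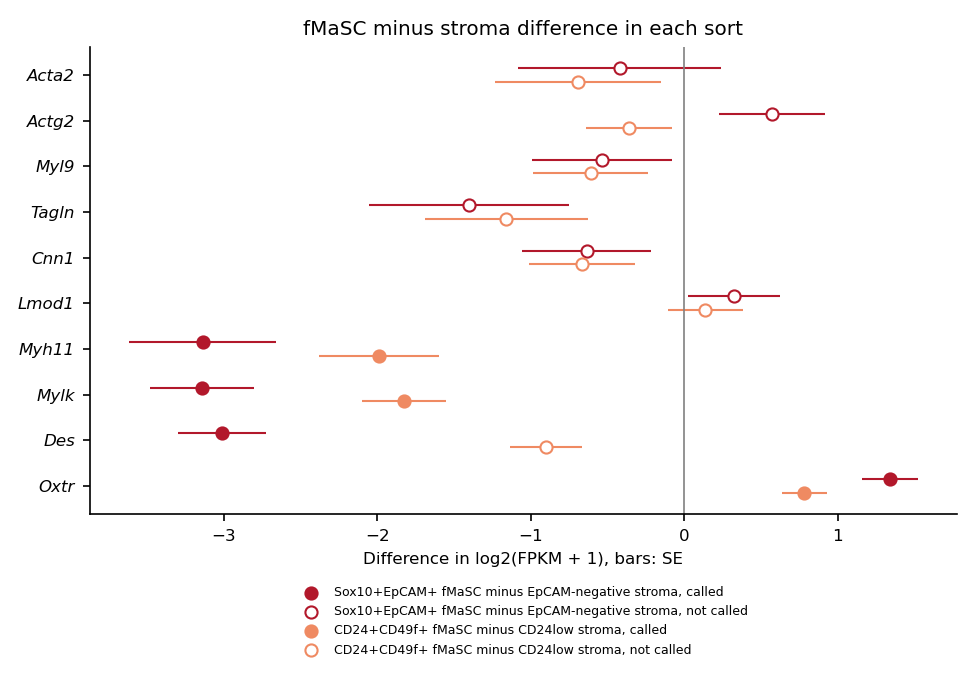
Difference in log2(FPKM + 1) between fMaSC and stroma (x axis) for each contractile gene (y axis), with the Sox10 sort above the CD24 sort. Points are limma estimates, bars are ± 1 SE, and filled points passed an adjusted p of 0.05. Myh11 and Mylk are filled on the left in both sorts, Des in the Sox10 sort, Oxtr on the right in both, and the other 6 genes are open.

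In the Sox10 sort, 3 members were called lower and 1 higher in Sox10+EpCAM+ fMaSC than in EpCAM-negative stroma, where 13.6% of all genes tested were called lower and 12.5% higher. In the CD24 sort 2 were called lower and 1 higher, where 2.94% of genes were called lower and 7.78% higher. The median difference of the members was −0.59 in the Sox10 sort and −0.68 in the CD24 sort, beside 0.09 and 0.13 for all genes tested. No member was called in the difference between the sorts, in which 1.44% of genes were called lower and 0.0763% higher. At an unadjusted p under 0.05 that difference held 2 of the members. Des came nearest with −2.11 (SE 0.373, limma adjusted p = 0.0649).

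Between the epithelial fractions, Sox10+EpCAM+ minus CD24+CD49f+ fMaSC, 1 member was called lower (Des) and 1 higher (Oxtr), where 8.04% of genes were called lower and 1.95% higher. Mylk was at −1.07 (SE 0.276, limma adjusted p = 0.0670) and Actg2 at 0.72 (SE 0.282, limma adjusted p = 0.193). Between the stromal fractions, EpCAM-negative minus CD24low, no member was called, where 0.0139% of genes were called in each direction. The member with the greatest difference there was Myh11, with 14.5 FPKM in the 1 EpCAM-negative library against 10.2 and 9.30 FPKM in CD24low stroma (0.53, 95% CI −0.64 to 1.70). At an unadjusted p under 0.05, 0 members passed in the stromal comparison.

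For Acta2, Tagln, Cnn1, Myh11, Mylk and Myl9 the widest spread between replicates was that within CD24+CD49f+ fMaSC. All 10 members were higher in its replicate 1 than in its replicate 2, by 4.23-fold for Myh11, 4.06-fold for Cnn1, 3.61-fold for Tagln, 3.51-fold for Acta2, 2.20-fold for Mylk and 2.16-fold for Myl9, and by 1.30-fold to 1.76-fold for the others. Between the Sox10+EpCAM+ replicates the ratio of replicate 1 to replicate 2 ran from 0.653 (Des) to 1.13 (Lmod1). The 2 CD24+CD49f+ libraries differed in other respects too: the summed FPKM of the whole library was 752737 in replicate 1 and 424984 in replicate 2, and erythroid markers summed to 6870 and 731 FPKM. Pericyte and vascular mural markers (10 genes) summed to 101 and 84.9 FPKM, skeletal muscle markers (15 genes) to 9.67 and 2.43 FPKM, and basal markers to 198 and 173 FPKM. Their part in the spread was not tested. Without replicate 1 the CD24 sort called 7 members lower, adding Acta2, Cnn1, Tagln, Myl9 and Des, where 3.15% of all genes tested in that fit were called lower. The comparison over both sorts also called 7 lower, where 16.5% of all genes were called lower. Oxtr was then no longer called in the CD24 sort. Without replicate 2 the comparison over both sorts called 4 members lower, adding Tagln, beside 20.9% of all genes. The Sox10-sort comparison, whose spread is shared with these libraries, called 5 lower without either of them, adding Cnn1 and Tagln, and the share of all genes called lower there was 18.9% in both fits, above the 13.6% with all libraries. Between the fMaSC fractions Acta2 and Actg2 joined Oxtr as higher in Sox10+EpCAM+ cells without replicate 1 (5.18% of all genes), and Myh11, Mylk and Tagln joined Des as lower without replicate 2 (6.64% of all genes).

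Each contractile isoform was also set against the other members of its family within the same library, a ratio that no rescaling of a library changes. Myh11 made up 0.981% to 6.73% of the FPKM of the 4 class II heavy chains Myh9, Myh10, Myh11 and Myh14 in fMaSC, against 15.2% to 19.5% in stroma. Acta2 made up 1.69% to 6.17% of 6 actins in fMaSC, against 6.69% to 6.92% in stroma, and Actg2 0.578% to 1.02% in fMaSC, against 1.00% to 1.62% in stroma. Tagln was 7.82% to 23.1% of Tagln plus Tagln2 in fMaSC, against 26.3% to 29.7% in stroma. Cnn1 was 0.384% to 1.46% of 3 calponins in fMaSC, against 1.57% to 2.51% in stroma, and Myl9 11.1% to 17.0% of 3 light chains in fMaSC, against 24.5% to 27.2% in stroma. For 5 of the 6 members all 4 fMaSC libraries lay below all 3 stromal libraries, and Actg2 overlapped. How often shares in other families separate in this way was not computed, so this count has no background. A share also falls where the rest of the family is higher. In CD24+CD49f+ replicate 1 Acta2 itself was the highest of all 7 libraries (75.6 FPKM). The 6 actins summed to 1226 FPKM there, against 919 to 1073 FPKM in stroma. An exact permutation test over the 7 libraries, two-sided, gave p = 0.0571 for each of those 5, the smallest value that 4 against 3 libraries allow, and p = 0.114 for Actg2 (0.0686 and 0.114 after Benjamini-Hochberg adjustment over the 6 shares). No share can therefore pass 0.05 in this permutation test, and for those 5 its p-value only restates that the groups did not overlap. The test also treats libraries of both sorts as exchangeable. Of the 5, Acta2, Tagln, Cnn1 and Myl9 were not called over both sorts by their own levels on FPKM as deposited. They were called lower when scaled to TPM.

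**Figure D3:**
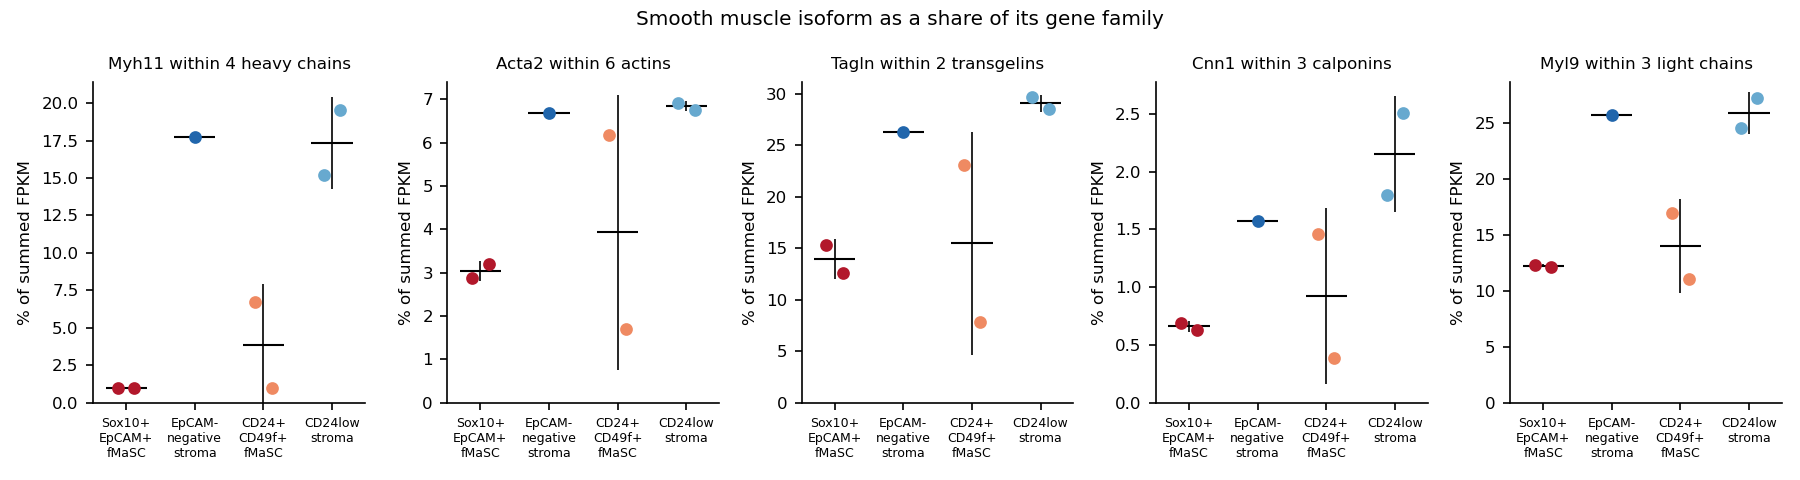
Share of the smooth muscle isoform in the summed FPKM of its gene family (y axis, percent, linear from 0) by sort group (x axis) for Myh11 among 4 myosin heavy chains, Acta2 among 6 actins, Tagln among 2 transgelins, Cnn1 among 3 calponins and Myl9 among 3 light chains. Points are libraries, lines are the mean and ± 1 SD (n = 2). Every fMaSC point lies below every stromal point in each panel, and CD24+CD49f+ replicate 1 lies nearest to stroma. Actg2, whose share overlapped between fMaSC and stroma, is not drawn.

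Of the non-muscle actomyosin list (13 genes), which supplies the cytoskeleton of every cell, 5 were called higher in fMaSC and 0 lower over both sorts, beside 18.4% and 15.3% of all genes, with a median of 0.36 beside 0.11 for all genes. Scaled to TPM the list had 1 higher and 0 lower, beside 6.35% and 13.3% of all genes. Its median turned to −0.19, with all genes at −0.37. Under quantile scaling 2 were higher and 1 lower, beside 15.5% and 18.7% of all genes, and the median was −0.07. Actg1, a cytoplasmic actin, measured 795 and 817 FPKM in Sox10+EpCAM+ fMaSC, against 349.6 FPKM in EpCAM-negative stroma, and 546 and 579 FPKM in CD24+CD49f+ fMaSC, against 359.8 and 395 FPKM in CD24low stroma (0.89, limma adjusted p = 0.0412 over both sorts). Myl12a, a non-muscle light chain, was also called higher (0.72, limma adjusted p = 0.0438), while Actb was at 0.39 (limma adjusted p = 0.309) and Myl6, the essential light chain, at 0.32 (limma adjusted p = 0.524).

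The regulators of the program did not move as a block. Of 7 smooth muscle transcription genes 3 were called higher and 2 lower in fMaSC over both sorts (18.4% and 15.3% of all genes). When scaled to TPM 0 were higher and 2 lower (6.35% and 13.3% of all genes). Myocd, which encodes myocardin, the coactivator of smooth muscle genes, measured 0.151 and 0.134 FPKM in Sox10+EpCAM+ fMaSC, against 1.49 FPKM in EpCAM-negative stroma, and 0.643 and 0.238 FPKM in CD24+CD49f+ fMaSC, against 1.71 and 0.565 FPKM in CD24low stroma. It was called lower over both sorts (−0.83, limma adjusted p = 0.0375), although CD24+CD49f+ replicate 1 lay above CD24low replicate 2, and it was not called in the Sox10 sort (limma adjusted p = 0.0658) or the CD24 sort (0.327) alone. Myocd reached 1 FPKM in 2 stromal libraries and in no fMaSC library, so, as for Oxtr, its entry into the test rested on the group where it is high. Srf, its DNA-binding partner, measured 19.3 and 20.4 FPKM in Sox10+EpCAM+ fMaSC, against 10.7 FPKM in EpCAM-negative stroma, and 13.1 and 18.1 FPKM in CD24+CD49f+ fMaSC, against 9.53 and 9.21 FPKM in CD24low stroma, and was called higher (0.75, limma adjusted p = 0.0143). The LIM-domain genes split: Fhl2 (1.42, limma adjusted p = 0.000530) and Csrp1 (0.72, limma adjusted p = 0.0442) were called higher, and Csrp2 lower (−1.15, limma adjusted p = 0.00224).

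Of 22 other genes of the smooth muscle cytoskeleton, 19 were tested, and over both sorts 2 were called higher and 5 lower in fMaSC, beside 18.4% and 15.3% of all genes, and 0 and 6 when scaled to TPM, beside 6.35% and 13.3%. The 4 with the highest levels, the crosslinker Flna, the tropomyosin Tpm1, the caldesmon Cald1 and the LIM protein Pdlim7, were not called, with log2 differences of 0.12, 0.21, −0.29 and 0.07. The genes called lower, named after their values were seen, were Itga1 (a collagen receptor subunit), Tns1 (tensin), Mrvi1, Synpo2 and Ppp1r14a (an inhibitor of myosin phosphatase), and those called higher were Pdlim3 and Itga8. Itga1 measured 0.115 and 0.157 FPKM in Sox10+EpCAM+ fMaSC, against 7.96 FPKM in EpCAM-negative stroma. Mrvi1 reached 1 FPKM in the 3 stromal libraries alone, so it too entered the test through its high group. Synpo2 and Ppp1r14a reached 1 FPKM among fMaSC in CD24+CD49f+ replicate 1 alone, so they also entered through stroma. Synm, Kcnmb1 and Pln were too low to be tested.

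Of 16 genes of the signalling steps between receptor and myosin, all tested, 4 were called higher and 3 lower over both sorts, near the 18.4% and 15.3% of all genes, which is no result about the list. Scaled to TPM they were 0 and 3, beside 6.35% and 13.3% of all genes. Rhoa, Gna11 and Gnaq, among those with the highest levels, were not called (−0.02, 0.04 and 0.64). Gnaq and Gna11 encode the G proteins through which the oxytocin receptor signals. The genes called, named after their values were seen, included the other contraction-linked receptors. Avpr1a, a vasopressin receptor of the same family as Oxtr, measured 0.0800 and 0.110 FPKM in Sox10+EpCAM+ fMaSC, against 6.47 FPKM in EpCAM-negative stroma, and 2.92 and 2.39 FPKM in CD24+CD49f+ fMaSC, against 5.07 and 7.44 FPKM in CD24low stroma, so it lay opposite to Oxtr (−1.87, limma adjusted p = 0.000601). Ednra, an endothelin receptor, was also lower (−2.23, limma adjusted p = 0.00192), with Plcb1 (−1.10). Plcb4, Stim1 and Orai1 were higher (1.28, 0.66 and 0.92). Ednrb, another endothelin receptor, was called higher over both sorts (0.88, limma adjusted p = 0.0239), which came from the CD24 sort (1.67, limma adjusted p = 0.0147). In the Sox10 sort its fMaSC values of 1.27 and 2.86 FPKM lay on either side of the 1.79 FPKM of EpCAM-negative stroma (0.08, limma adjusted p = 0.868).

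Stroma can hold vascular smooth muscle, pericytes and striated muscle beside fibroblasts, and their markers were read in the same libraries. The 10 pericyte and vascular mural markers summed to 45.9 and 54.1 FPKM in Sox10+EpCAM+ fMaSC, against 240.1 FPKM in EpCAM-negative stroma, and to 101 and 84.9 FPKM in CD24+CD49f+ fMaSC, against 200.1 and 222 FPKM in CD24low stroma. Over both sorts 9 of 10 were called lower in fMaSC, beside 15.3% of all genes, and Mcam was the exception. Rgs5, a defining pericyte gene, measured 0.289 and 0.685 FPKM in Sox10+EpCAM+ fMaSC, against 50.3 FPKM in EpCAM-negative stroma, and 14.9 and 2.73 FPKM in CD24+CD49f+ fMaSC, against 35.1 and 56.2 FPKM in CD24low stroma. Its CD24+CD49f+ replicates were thus spread in the same direction as Myh11. Pdgfrb, another mural marker, measured 9.11 and 10.5 FPKM in those replicates. The list was split there: Cspg4, Abcc9, Notch3 and Vtn, like Pdgfrb, were lower in replicate 1 than in replicate 2, and the rest were higher. Between fMaSC and stroma most mural markers thus moved with Myh11, Mylk and Des. So did the fibroblast and matrix markers, with 10 of 10 called lower over both sorts, so the direction was not particular to mural genes. The part of either list in those results was not tested.

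Skeletal muscle markers were low: the 15 genes summed to 0.877 and 2.80 FPKM in Sox10+EpCAM+ fMaSC, against 14.9 FPKM in EpCAM-negative stroma, and to 9.67 and 2.43 FPKM in CD24+CD49f+ fMaSC, against 14.0 and 17.2 FPKM in CD24low stroma. Only 4 of the 15 were tested and 3 were called lower over both sorts, among them the striated actins Acta1 (−1.24) and Actc1 (−1.59). Among all genes tested 15.3% were called lower and 18.4% higher, beside which this and the next counts stand. Acta1 reached 1 FPKM in no fMaSC library, and Actc1 among them in CD24+CD49f+ replicate 1 alone. Both thus entered the test through stroma, where they are high. Myod1, a defining gene of the lineage, was at or below 0.670 FPKM in all 7 libraries and listed at 0 in Sox10+EpCAM+ replicate 1 and CD24+CD49f+ replicate 2. Basal epithelial markers were called higher in 10 of 11 cases and luminal markers in 7 of 8, with Esr1 lower. Of the epithelial pattern shown by Krt5 and Trp63, called higher by 4.45 and 2.09 over both sorts, Oxtr alone among the contractile genes shared the direction with a call. Krt5 and Trp63 reached 1 FPKM in fMaSC libraries alone, so they too entered the test through their high group. The same held for Krt17, Cdh3, Itgb4, Col17a1, Lama3 and Sfn among basal markers and Cldn4, Gata3 and Elf5 among luminal markers. Krt14, Krt8 and Krt18 reached it in stroma in the EpCAM-negative library alone, so they entered that way as well. The basal and luminal counts are therefore no independent support for the direction. Endothelial markers (8 genes, 7 tested) were called higher in 1 case and lower in 2, leukocyte markers (6 genes, 3 tested) lower in 1, and erythroid markers (6 genes, 5 tested) in none.

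**Figure D4:**
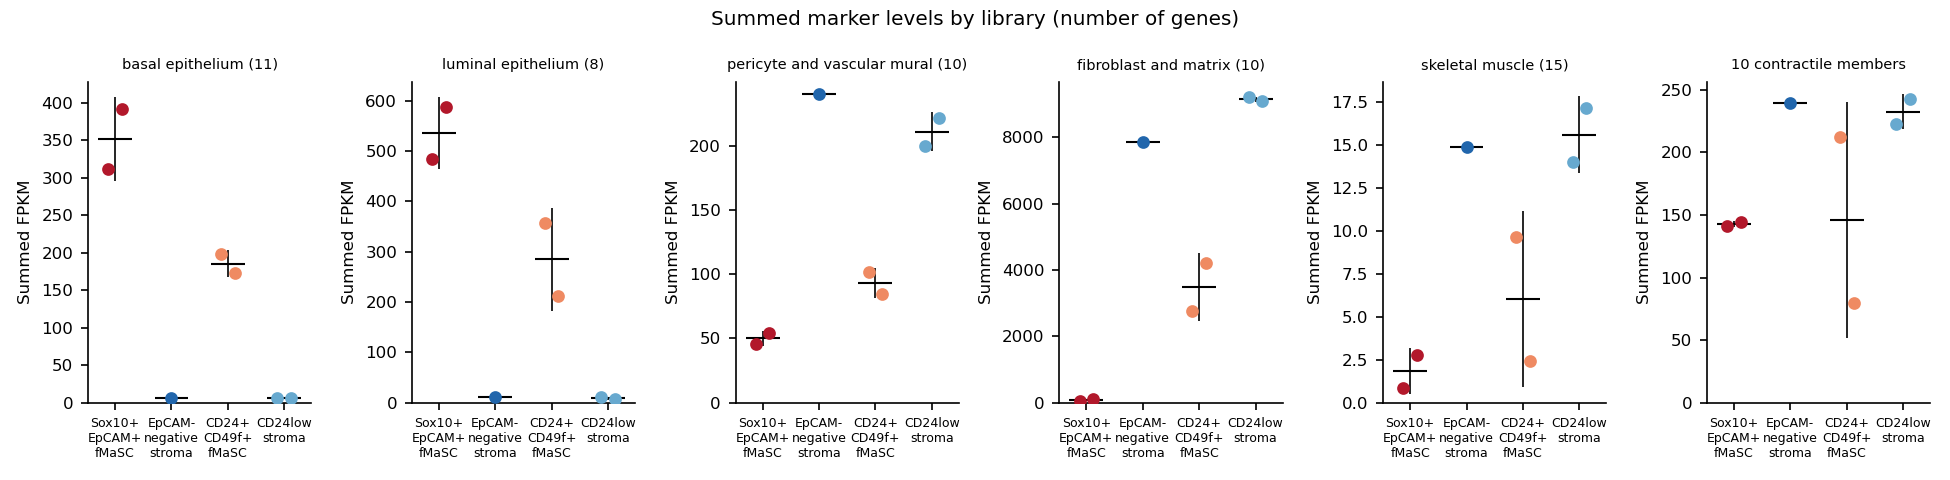
Summed FPKM (y axis, linear from 0) of marker lists of other cell types and of the 10 contractile members, by sort group (x axis), with the number of genes in each list in the panel title. Points are libraries, lines are the mean and ± 1 SD (n = 2). Epithelial lists are high in fMaSC, and mural, matrix and skeletal lists in stroma. CD24+CD49f+ fMaSC lie between for the mural and matrix lists. For the skeletal list replicate 1 lies between and replicate 2 lies within the range of the Sox10+EpCAM+ libraries.

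For 4 members the genes whose profile over the 7 libraries was most alike were looked up among 7443 genes with a mean of at least 5 FPKM. With so few libraries, which share their sorts, high coefficients are common, and Pearson's r of log2(FPKM + 1) serves only to rank. For Acta2 the nearest were Abhd17a (0.98), the tropomyosin Tpm2 (0.97), Alg5 (0.94), Myl9 (0.93) and Prdx5 (0.92). For Myh11 they were Alad (0.99), Bet1l (0.99), Mylk (0.98), Stc1 (0.98) and BC029722 (0.98). Tagln was followed by Ftl1 (0.99), Tmem120a (0.98), Mcrip2 (0.97), Etfb (0.97) and Fam213a (0.96), none of them a member, and Oxtr by Agpat5, Kctd14, Amd2, Set and Klhl9 (0.997 for the first 2 and 0.996 for the others). The minimum of 5 FPKM kept low genes such as Cnn1 out of the search. Over the same 7 libraries Tagln and Cnn1 had an r of 0.99, above all but the first of the genes listed for Tagln. Other contractile genes were thus listed for Acta2 (Tpm2 and Myl9) and Myh11 (Mylk), and Tagln was as close to Cnn1, which the search left out. Tpm2, the tropomyosin of muscle cells, measured 20.8 and 20.5 FPKM in Sox10+EpCAM+ fMaSC, against 27.8 FPKM in EpCAM-negative stroma, and 24.7 and 9.82 FPKM in CD24+CD49f+ fMaSC, against 20.2 and 24.5 FPKM in CD24low stroma.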

How the data were processed

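RNA was prepared from sorted cells of 7 libraries with TruSeq kits and read as 100-base paired ends in duplicate lanes, per the labels' protocols. Reads were handled with STAR and Cufflinks on GRCm38/mm10, per the submitters' processing notes, which give no versions. Per the file headers the authors deposited FPKM, in 1 column per library, without counts, so depth was estimated from the spacing of low values (76.9% to 83.6% lay within 0.15 of a whole fragment) and is approximate. Of 38579 entries, 36664 were named from GENCODE. The 10 symbols were matched without regard to case (8 were spelled in another case), and no member had repeated rows. The 8 added sequences were left out.

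FPKM was turned into log2(FPKM + 1), and means of the 4 groups were estimated over all 7 libraries with limma 3.58.1 (R 4.3.3), using moderated variances with a trend on 3 residual degrees of freedom. Contrasts were fMaSC minus stroma in each sort, their mean and their difference, and the fractions within fMaSC and within stroma. The EpCAM-negative group is 1 library, whose variance is assumed to match the others. The fit was tested on simulated data. Family shares used exact permutation tests (scipy 1.17.1).

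The members and the 12 other gene lists (132 genes) were chosen with earlier results of these data known. Named genes were the members, up to 4 genes per list by mean level, a few lineage markers, and the nearest profiles of 4 members. One gene that this rule names is not reported here. Gene coordinates are those of GENCODE on GRCm38, and promoter sequences those of RefSeq (GRCm38.p6). Alternatives were another pseudocount, filter, scaling or variance model, the CD24-sort libraries alone, and each library left out. The labels give no numbers that pair libraries. The label of one Sox10+EpCAM+ replicate does not mention lineage depletion, while its column name does.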

Additional observations from a re-analysis of the deposited data

How the results depend on the processing

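Of 881 recomputed values for single members and shares, 825 kept their direction or their side of the threshold, 35 gained a call, 21 lost one and none of those called turned round. In the Sox10 sort and over both sorts, Myh11, Mylk and Des were called in all 14 alternatives, and Oxtr in the 11 that tested it. Counts of members called moved as follows. The filter of 5 FPKM removed Oxtr, so it called 0 higher in the CD24 sort, the Sox10 sort, both sorts and the fMaSC fractions. TPM scaling gave 0 higher in the CD24 sort and in the fMaSC fractions (3% and 0.0902% of all genes). It gave 5 lower in the Sox10 sort, adding Tagln and Myl9, where 11.2% of all genes were called lower. Over both sorts it gave 7 lower, adding Acta2, Cnn1, Tagln and Myl9, where 13.3% of all genes were called lower. Over both sorts quantile scaling gave 5 lower, adding Tagln and Myl9 (18.7% of all genes), and median-ratio scaling 4, adding Tagln (19.7%). Median-ratio scaling also added Des as lower in the CD24 sort (limma adjusted p = 0.0493), where 4.52% of all genes were called lower. In the CD24 sort, no filter gave 0 lower (0.889% of all genes). The CD24-sort libraries alone gave 1 lower and 0 higher (0.977% and 5.1% of all genes). Oxtr was not tested there, since it stays under 1 FPKM in those libraries. A pseudocount of 0.1 gave 0 higher and 2 lower in the fMaSC fractions (0.777% and 9.55% of all genes). It gave 1 lower in the difference between sorts (2.8% of all genes). The fit with no variance trend gave 0 higher in the fMaSC fractions (1.57% of all genes). Apart from the fits that left Oxtr out, the cause was not tested. TPM scaling moved the median of all genes to −0.12 in the CD24 sort, −0.63 in the Sox10 sort and −0.37 over both sorts, beside 0.13, 0.09 and 0.11 as reported.

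With each library left out in turn, counts of members called moved, and so did the share of all genes called. A change in such a count is therefore no result about the members. Over both sorts and all 14 alternatives, the log2 difference ran from −3.37 to −2.25 for Myh11 and from −3.25 to −2.28 for Mylk. For Des it ran from −3.13 to −1.83, and for Oxtr from 1.02 to 3.05 in the 11 that tested it. Oxtr is not tested without either Sox10+EpCAM+ library. Shares within families, whose leave-one-out values were added after the data were seen, kept their sign. Summing repeated rows changes nothing, since no member has any. No paired analysis was possible because the labels give no shared replicate numbers. Depth bears most on Oxtr, whose stromal values stand for an estimated 1.03 to 11.4 fragments.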
